A study of Mus musculus with 2 samples.

Results

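Marco and 6 other scavenger receptor genes, Msr1, Cd163, Cd36, Mrc1, Stab1 and Scarb1, were followed across the cell classes of fibrotic mouse liver. They are 7 of the 32285 genes in the deposited matrices, taken by symbol. The set was drawn up with earlier results of these data in view, in which Marco stood out among macrophage genes, so the differences between libraries given for it are descriptions. Liver non-parenchymal cells, the liver's cells other than hepatocytes, came from Mfap2+/+ mice (labelled WT) and from Mfap2-/- mice (labelled KO). Both groups received CCl4, a hepatotoxin that causes fibrosis, by intraperitoneal injection for 8 weeks. There was no group without CCl4. The product of Mfap2 is a microfibril-associated glycoprotein of the extracellular matrix. The labels give neither the number, age, sex nor strain of the animals behind a library, nor in which cells the allele is inactive. Each genotype has a single library, so the genotypes could not be tested against each other, and genotype, animal and library preparation cannot be told apart.

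Scavenger receptors bind modified lipoproteins, bacterial surfaces, haemoglobin complexes and cell debris and carry them into the cell. In the liver this work is shared by Kupffer cells, the resident macrophages of the sinusoids, and by sinusoidal endothelial cells. MARCO and MSR1 are class A receptors with a collagenous stalk. CD163 takes up haptoglobin-haemoglobin complexes. CD36 and SCARB1 are class B receptors, for fatty acids and oxidised lipoproteins and for high-density lipoprotein respectively. MRC1, the mannose receptor, and STAB1, stabilin-1, clear glycoproteins and extracellular matrix fragments.

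The WT library held 11783 barcodes with a median of 4685 UMIs (unique molecular identifiers, which count captured RNA molecules), and the KO library 12872 with a median of 6511. After filters 10336 WT and 11428 KO cells were kept, and 40 barcodes occurred in both libraries. Mfap2, the check of the labels, had 215 UMIs in the WT cells kept and 2 in the KO cells. Cells were clustered without the members, and clusters were named from marker genes: 21 classes were named and 5 clusters were not. Hepatocyte-like cells numbered 45 in WT and 77 in KO. Levels are UMIs per 1000000 UMIs of a class (CPM), with 95% intervals that cover counting error only. The protocol counts 3′ ends and does not scale by length, so levels are compared within a gene only. Log2 ratios are KO over WT. B-like and T-like cells, which should lack these receptors, gave the background of free RNA.

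The Kupffer-like class is cluster 3, with 829 WT and 296 KO cells and a median of 12220 and 14766 UMIs per cell. Its leading genes included Cxcl13, Clec4f, Cd5l, Vsig4 and Fcna, and Marco itself headed them although it did not enter the clustering. Other macrophage-like cells are clusters 1, 14 and 19, with 1203 WT and 1855 KO cells. The 2 classes together are called macrophage-like. Kupffer-like cells made up 40.8% (38.7 to 43.0) of macrophage-like cells in WT and 13.8% (12.3 to 15.3) in KO, a share that bears on each pooled value below. Leading genes of the cluster, Clec4f among them, differ between the libraries, so this share is not a measure of how many Kupffer cells the livers held. With each cell gated by its own markers the share was 63.9% of 1045 cells in WT and 41.2% of 869 in KO. Macrophage-like cells with a Clec4f UMI made up 36.2% in WT and 32.5% in KO. Of these 735 and 700 cells, 184 in WT and 442 in KO were other macrophage-like. Free RNA enters these shares too, as Clec4f stood at 13.9 CPM in WT and 16.2 CPM in KO B-like cells.

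Marco and Cd163 were the members with a 2-fold lower level in KO macrophage-like cells, and their promoters are shown because the results turn on these genes. Marco lies on the reverse strand of chromosome 1, chr1:120474538-120505024 on GRCm38, and overlaps no other annotated gene. Cd163 lies on the forward strand of chromosome 6, chr6:124304656-124330527. The 250 bases before each RefSeq start (GRCm38.p6) are given 5′ to 3′ on the strand of the gene, at chr1:120505025-120505274 for Marco and chr6:124304401-124304650 for Cd163. Capitals mark GAGGAA, the core bound by the macrophage factor PU.1.
Marco: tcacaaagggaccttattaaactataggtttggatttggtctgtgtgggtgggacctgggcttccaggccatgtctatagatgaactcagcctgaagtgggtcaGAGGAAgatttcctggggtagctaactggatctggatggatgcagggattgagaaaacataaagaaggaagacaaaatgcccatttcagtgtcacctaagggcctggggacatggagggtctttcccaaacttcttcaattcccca
Cd163: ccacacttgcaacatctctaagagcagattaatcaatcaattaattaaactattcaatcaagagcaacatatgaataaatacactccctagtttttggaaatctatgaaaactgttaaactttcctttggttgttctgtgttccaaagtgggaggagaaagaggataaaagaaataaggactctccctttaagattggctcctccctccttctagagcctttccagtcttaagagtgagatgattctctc
Searched on both strands, GAGGAA occurred once in the Marco window, beginning 146 bases before the start, and not in the Cd163 window. It occurred in 3 of the 5 members found in the promoter table (Marco, Mrc1 and Stab1) and in 23.3% of all 32851 promoters over the same length. TGANTCA, the AP-1 site, occurred in none of the 5 and in 6.75% of all. A match is a run of letters and not a measured binding site.

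Marco, the class A receptor that binds bacteria and unopsonised particles, was concentrated in Kupffer-like cells of both libraries. Its level there was 1910.4 CPM (1884 to 1938, 19332 UMIs) in WT and 572 CPM (549 to 595, 2446 UMIs) in KO. The KO level was 3.34-fold lower, a log2 ratio of -1.74 (-1.80 to -1.68). In macrophage-like cells pooled, Marco stood at 919.6 CPM in WT and 97.8 CPM in KO, 9.41-fold lower (log2 ratio -3.23, -3.29 to -3.18). Kupffer-like cells held 82.3% of the 23491 Marco UMIs in the WT cells kept and 60.1% of the 4073 in the KO cells kept. These shares also depend on the number of Kupffer-like cells, 829 in WT and 296 in KO.

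The pooled value mixes clusters in proportions that differ between the libraries. With the KO level of each macrophage cluster weighted by the WT mix of clusters, the KO level came to 269 CPM and the log2 ratio to -1.77. For Cd163 the same weighting gave -0.55, against -1.85 pooled. This weighting holds only as far as the cluster borders do. Other ways of drawing the class moved the Kupffer-like value for Marco to between -2.33, with each cell gated by its own markers, and -2.08, with stricter cell filters. Thinning every cell to 1000 UMIs moved it to -1.31.

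**Figure D1:**
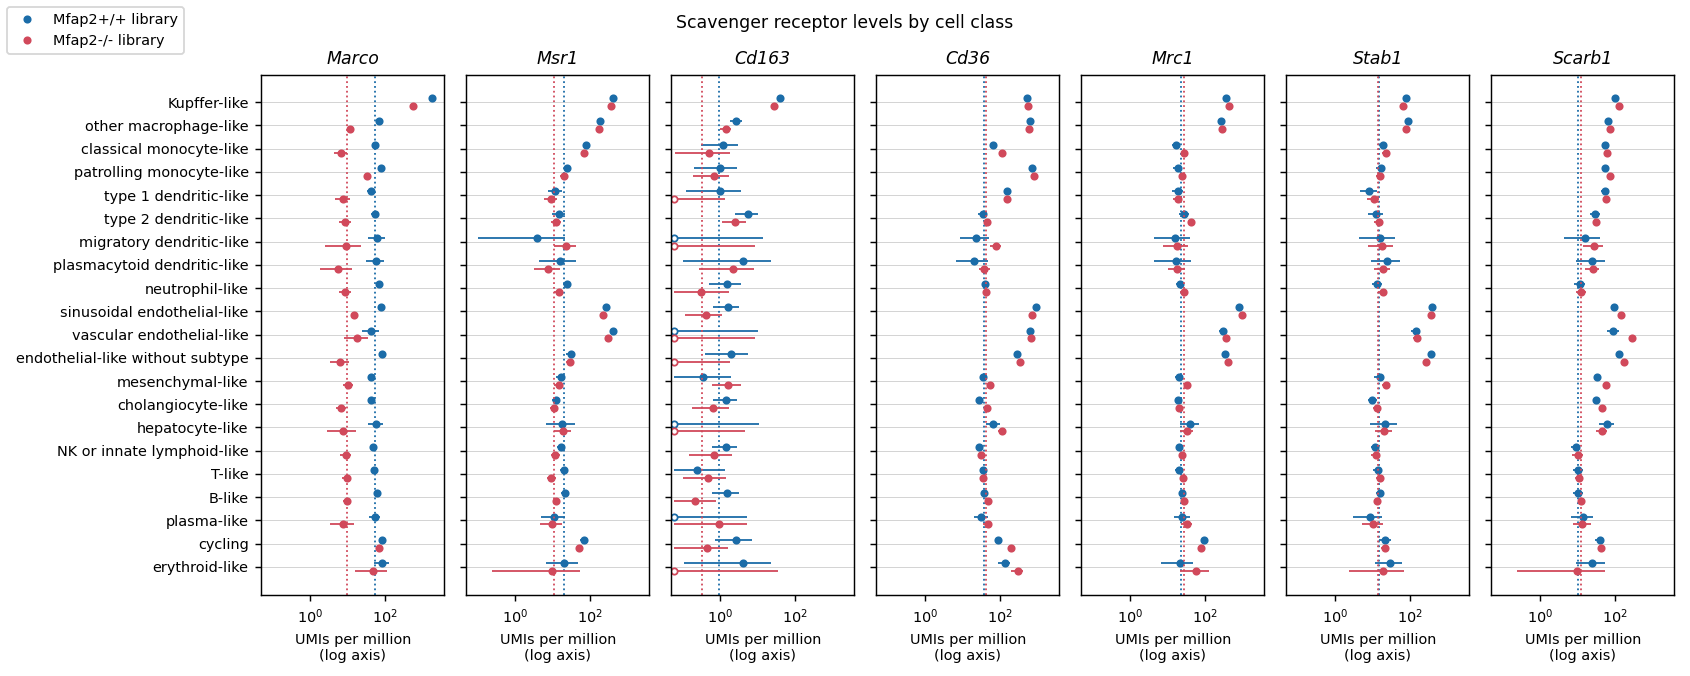
Level of each member in CPM (log axis) in 21 named cell classes of the Mfap2+/+ (blue) and Mfap2-/- (red) libraries. Points are class sums, bars 95% counting intervals, open points at the left edge are 0 UMIs, and dotted lines are the level in B-like and T-like cells. Marco and Cd163 are highest in Kupffer-like cells, while Mrc1 and Stab1 are highest in sinusoidal endothelial-like cells in both libraries.

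Outside Kupffer-like cells Marco was not above the background in most classes, and the background itself differed between the libraries. B-like and T-like cells together held 56.9 CPM (52.0 to 62.2) in WT and 9.75 CPM (8.24 to 11.5) in KO, a log2 ratio of -2.54. Other macrophage-like cells held 73.1 CPM in WT and 11.8 CPM in KO. Without the 1 cell richest in Marco in each library they held 51.2 and 10.6 CPM, so the WT level lay above the background only with that cell. Sinusoidal endothelial-like cells held 78.8 CPM and 15.1 CPM. These levels were 1.28 and 1.21 times the background of their library in other macrophage-like cells, and 1.38 and 1.55 times in sinusoidal endothelial-like cells. Their log2 ratios, -2.62 and -2.38, lay on either side of that of the background. After Kupffer-like cells the order of classes in WT was a run of values between 85.4 and 42.4 CPM whose neighbouring intervals overlapped. In KO, cycling cells lay above the background, at 70.5 CPM (63.0 to 78.8, 315 UMIs) against 84.9 CPM (70.5 to 101) in WT, a log2 ratio of -0.28 (-0.57 to 0.05). There 1 cell held 222 of the KO UMIs and 1 held 67 of the 122 WT UMIs. Without these cells the levels were 20.9 CPM in KO and 39.3 CPM in WT, above the background in KO and below it in WT. Erythroid-like cells held 85.4 CPM in WT and 49.1 CPM in KO, from 20 and 5 UMIs.

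Among the other macrophage-like clusters, cluster 19 held Marco at 342 CPM in WT and 36.6 CPM in KO. In WT 1 cell held 261 of the 316 UMIs. Without the richest cell of each library the levels were 61.2 CPM (46.1 to 79.6) in WT, an interval that holds the background, and 25.8 CPM (20.2 to 32.6) in KO. Clusters 1 and 14 held 50.3 CPM (45.6 to 55.3) and 50.6 CPM (42.2 to 60.2) in WT, intervals that overlap that of the background. Patrolling monocyte-like cells held 80.7 CPM in WT and 33.6 CPM in KO. Above the background of their own library these values come to 23.8 and 23.9 CPM, a log2 ratio of 0.01.

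Within the Kupffer-like class Marco was uneven from cell to cell. No Marco UMI was found in 353 of 829 WT cells (42.6%) and 179 of 296 KO cells (60.5%). Free RNA, which was higher in WT, enters these shares. Other macrophage-like cells without a Clec4f UMI held Marco near the background, at 51.1 CPM in WT and 8.31 CPM in KO. A Marco UMI was found in 35.8% of these 1019 WT cells and 8.70% of these 1413 KO cells. The shares without a UMI therefore do not measure how many Kupffer-like cells lack Marco. In the Kupffer-like class at least 10 UMIs were found in 174 WT cells, or 21.0% (18.3 to 23.9), and in 61 KO cells, or 20.6% (16.1 to 25.7). These cells carried 97.3% of the class's Marco UMIs in WT and 94.8% in KO. The intervals of the 21.0% and 20.6% overlapped, but the cut is a raw count at unequal depth. Cells with a Clec4f UMI made up 66.5% of the class in WT and 87.2% in KO. Among these, 28.3% (24.6 to 32.3) of WT and 22.5% (17.5 to 28.1) of KO cells had at least 10 Marco UMIs. In all Kupffer-like cells with at least 10, the median was 76.5 Marco UMIs in WT and 29 in KO, and the highest cell held 774 and 135. Their level was 8536 CPM in WT and 2622 CPM in KO at a median depth of 11840.5 and 13402 UMIs.

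**Figure D2:**
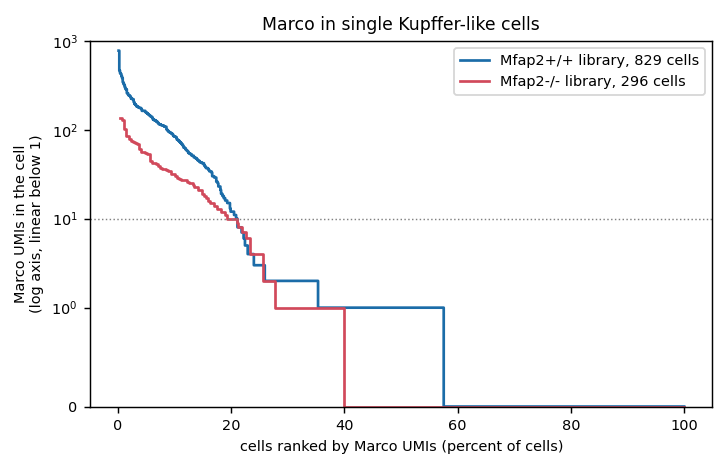
Marco UMIs in each Kupffer-like cell (log axis, linear below 1), with the cells of each library ranked from highest to lowest and given as percent of cells. The dotted line marks 10 UMIs, which 21.0% of WT cells (blue) and 20.6% of KO cells (red) reach, with the WT curve above the KO curve among the richest cells (highest cell 774 and 135 UMIs).

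Cells were also thinned to equal depth. At 1000 UMIs per cell, Marco was found in 26.2% of WT and 21.3% of KO Kupffer-like cells, with a mean of 7.83 and 3.89 UMIs per positive cell. The unthinned shares were 57.4% and 39.5%. In B-like and T-like cells, with a median depth of 3801 and 5068 UMIs, the thinned shares were 5.19% in WT and 0.90% in KO. The unthinned shares there were 21.7% and 4.91%, which is what free RNA gives in cells of another type.

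Clec4f, a lectin restricted to Kupffer cells, was used to split the cells. In Clec4f-positive Kupffer-like cells (551 WT, 258 KO) Marco stood at 2626 CPM in WT and 625 CPM in KO, a log2 ratio of -2.07 (-2.13 to -2.01). In Clec4f-negative ones (278 WT, 38 KO) it stood at 372 and 203 CPM, a log2 ratio of -0.86. That ratio rests on few KO cells: 7 of the 38 had a Marco UMI, and 3 had 10 or more. Cells with 10 or more Clec4f UMIs held 10 or more Marco UMIs in 33.5% (27.1 to 40.3) of 209 WT cells and 23.2% (16.7 to 30.7) of 151 KO cells. Among those the median was 113.5 Marco UMIs in WT and 32 in KO. Clec4f itself went the other way, from 510.2 CPM in WT to 1019 CPM in KO Kupffer-like cells. In pooled macrophage-like cells the log2 ratio of Marco was -3.10 in Clec4f-positive and -3.19 in Clec4f-negative cells. These pooled ratios again mix the classes in unlike proportions. Of the Clec4f-positive cells, 551 of 735 were Kupffer-like in WT and 258 of 700 in KO.

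Timd4, a phosphatidylserine receptor of long-resident Kupffer cells, gave a wider split. Kupffer-like cells with a Timd4 UMI (180 WT, 80 KO) held Marco at 5624 CPM in WT and 879 CPM in KO, a log2 ratio of -2.68. Those without (649 WT, 216 KO) held 860.3 CPM and 434 CPM, a log2 ratio of -0.99. Marco was lower in KO on both sides of either split. The difference between the sides was not tested.

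Other measures moved in the same cells, and not in these alone. The 7 Kupffer cell markers, all detected, summed to 7790 CPM in WT and 7117 CPM in KO Kupffer-like cells. They did not move together: Clec4f went from 510.2 to 1019 CPM, while Cd5l was lower in KO. Cd5l stood at 7233 and 4900 CPM in cells with at least 10 Marco UMIs and at 4923 and 4083 CPM in those with fewer. Of 10 dissociation and heat stress genes, 5 were at least 2-fold higher in KO Kupffer-like cells, where 5.58% of all genes were, and none lower, where 1.26% were, with a median log2 ratio of 0.82 against 0.13 over all genes. Bag3, a co-chaperone, went from 77.6 to 696 CPM, and Hsph1, a heat shock protein, from 293 to 1461 CPM. Dnaja1, Dnajb1 and Hspa1b were the others. Erythroid markers summed to 503 CPM in WT and 133 CPM in KO, and hepatocyte markers to 32.8 and 91.6 CPM. In sinusoidal endothelial-like cells 5 of the 10 stress genes were also at least 2-fold higher in KO, where 3.82% of all genes were. Their median log2 ratio was 0.96. Erythroid markers summed there to 941 and 197 CPM, and hepatocyte markers to 64.1 and 135 CPM. The part of these measures in the Marco result was not tested.

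Cd163, the haemoglobin scavenger receptor, was also concentrated in Kupffer-like cells, which held 78.6% of its UMIs in the WT cells kept and 59.0% in the KO cells kept. Kupffer-like cells held 40.3 CPM (36.5 to 44.4, 408 UMIs) in WT and 28.3 CPM (23.5 to 33.8, 121 UMIs) in KO, a log2 ratio of -0.50 (-0.82 to -0.22). Pooled macrophage-like cells held 20.1 and 5.56 CPM, a log2 ratio of -1.85. The KO value rests on few cells: the 5 richest held 43.8% of its 121 UMIs, against 27.5% of 408 in WT. With finer clusters the Kupffer-like log2 ratio was -1.02. Other macrophage-like cells held 2.79 CPM in WT and 1.44 CPM in KO, from 33 and 34 UMIs. Type 2 dendritic-like cells held 5.68 and 2.57 CPM from 9 UMIs each. In B-like and T-like cells the level was 0.93 and 0.33 CPM, and vascular endothelial-like cells had no Cd163 UMI in either library.

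Cells rich in Marco were also rich in Cd163 in both libraries. Kupffer-like cells with at least 10 Marco UMIs held Cd163 at 118 CPM (104 to 133) in WT, against 18.8 CPM (15.9 to 22.1) in those with fewer, 6.24-fold higher. In KO the values were 83.7 CPM (65.7 to 105) and 13.8 CPM (10.2 to 18.4), 6.04-fold higher. Timd4 was 8.03-fold higher in the Marco-rich cells of WT and 2.31-fold higher in those of KO. Clec4f, Cd5l and Vsig4, other Kupffer cell genes, differed less: Clec4f was 1.71-fold and 1.48-fold higher and Cd5l 1.47-fold and 1.20-fold. Vsig4 was 1.72-fold higher in WT and stood at 0.93-fold in KO. The other members differed far less: Msr1 was 1.52-fold higher in WT and 0.94-fold in KO, and Cd36 0.91-fold and 1.35-fold. Mrc1 (0.99-fold and 1.14-fold), Stab1 (0.78-fold and 1.08-fold) and Scarb1 (1.11-fold and 0.66-fold) had no common direction. These cells were chosen by their Marco count and come from 1 library each, so the values describe them without a test.

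**Figure D3:**
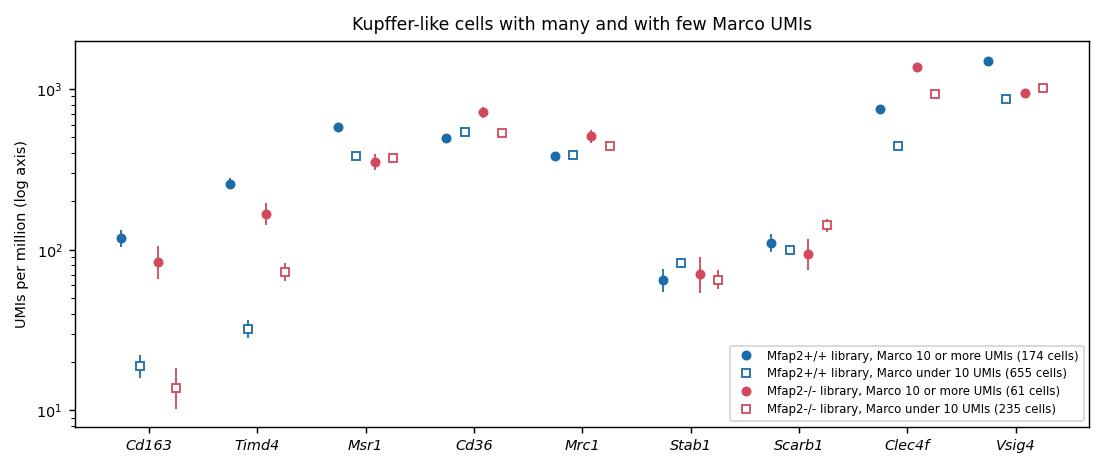
Levels in CPM (log axis) in Kupffer-like cells with 10 or more Marco UMIs (filled circles) and with fewer (open squares), in the Mfap2+/+ (blue) and Mfap2-/- (red) libraries, with 95% counting intervals. Cd163 and Timd4 separate the 2 kinds of cell in both libraries, at 118 against 18.8 CPM in WT and 83.7 against 13.8 CPM in KO for Cd163, while the other members lie closer together.

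Msr1, the class A receptor for modified lipoproteins, was highest in Kupffer-like and vascular endothelial-like cells, whose intervals overlapped in both libraries. Kupffer-like cells held 424 CPM (411 to 437) in WT and 369.9 CPM (352 to 389) in KO, a log2 ratio of -0.20. Vascular endothelial-like cells, 46 in WT and 41 in KO, held 414 and 316 CPM. Sinusoidal endothelial-like cells held 273.5 CPM in WT and 224 CPM in KO, a log2 ratio of -0.29 (-0.39 to -0.18). Other macrophage-like cells held 189 and 178 CPM, a log2 ratio of -0.09. The pooled macrophage-like ratio of -0.52 was larger than that of either class in it, and at the WT mix of clusters it was -0.16. Endothelial-like cells without subtype held 31.1 and 30.1 CPM, and B-like and T-like cells 21.0 and 11.3 CPM. The class without subtype is cluster 16, with 187 WT and 197 KO cells. Its leading genes include Selp, Edn1 and Vwf, and Edn1 and Vwf are markers of the vascular class. The vascular endothelial-like values are those of cluster 36 alone and do not stand for all cells with vascular markers.

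Within sinusoidal endothelial-like cells Msr1 differed by cluster. Cluster 4 held 389.6 CPM in WT and 297 CPM in KO. Cluster 5 held 197 and 201 CPM. The log2 ratio was -0.39 in cluster 4 and 0.03 in cluster 5. Among macrophage clusters, cluster 14, led by Gpnmb and Mmp12, was higher in KO (196 and 236 CPM) and cluster 1 lower (183 and 158 CPM).

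Cd36, the fatty acid translocase, was carried by macrophages, endothelium and patrolling monocytes alike. Sinusoidal endothelial-like cells held 959 CPM (930 to 988) in WT and 734 CPM (717 to 752) in KO, a log2 ratio of -0.39 (-0.44 to -0.33). In cluster 5 the levels were 965 and 686 CPM, and in cluster 4 they were 976 and 894 CPM. Patrolling monocyte-like cells held 736 CPM in WT and 853 CPM in KO, a log2 ratio of 0.21, and were the highest class of KO. With cells gated by their own markers that ratio was -0.10. Classical monocyte-like cells held 65.6 and 115 CPM.

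In macrophages Cd36 differed more between clusters than between libraries. Cluster 14 held 1444 CPM (1397 to 1492) in WT and 1404 CPM (1368 to 1441) in KO, against 433 and 447 CPM in cluster 1. Kupffer-like cells held 532 and 573 CPM, a log2 ratio of 0.11 whose sign turned under 4 of 11 alternatives. Pooled macrophage-like cells held 592 and 622 CPM, a log2 ratio of 0.07 whose sign turned under 3 of 11. Cluster 19 stood apart, with 385.5 CPM in WT and 612 CPM in KO, a log2 ratio of 0.66 (0.50 to 0.84). That cluster is led by Pde4c, Gm3336 and Gm47507, and its leading genes include none of the macrophage markers. The background was 37.4 and 44.5 CPM.

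Mrc1, the mannose receptor, and Stab1 shared a distribution led by sinusoidal endothelium. Mrc1 stood at 847 CPM (820 to 875) in WT and 987 CPM (967 to 1008) in KO sinusoidal endothelial-like cells, a log2 ratio of 0.22 (0.16 to 0.28). Kupffer-like cells held 386 and 457 CPM, a log2 ratio of 0.24, which ranged from 0.06 to 0.24 over the alternatives. Endothelial-like cells without subtype held 353 and 415 CPM. Other macrophage-like cells held 279.6 and 289 CPM, and the background was 23.1 and 27.3 CPM. In pooled macrophage-like cells the log2 ratio of -0.06 turned to 0.15 at the WT mix of clusters.

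Stab1 stood at 401.5 CPM (383 to 421) in WT and 373 CPM (361 to 386) in KO sinusoidal endothelial-like cells, a log2 ratio of -0.11. Endothelial-like cells without subtype held 377 and 276 CPM, a log2 ratio of -0.45 (-0.62 to -0.28). Their WT interval overlapped that of sinusoidal cells and their KO interval did not. Kupffer-like cells held 78.7 and 66.1 CPM, and other macrophage-like cells 93.5 and 79.3 CPM, log2 ratios of -0.25 and -0.24. Stab1 overlaps Nt5dc2 on the opposite strand, and the setting for strand in the counting is not given in the sources used here.

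**Figure D4:**
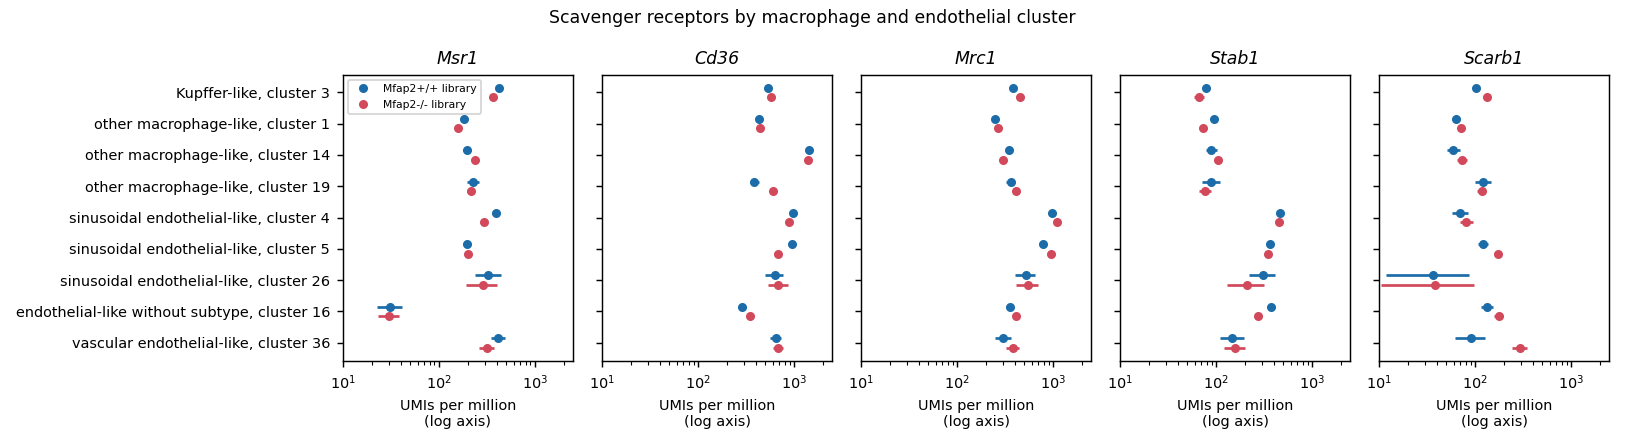
Level of 5 members in CPM (log axis) in each macrophage and endothelial cluster of the Mfap2+/+ (blue) and Mfap2-/- (red) libraries, with 95% counting intervals. Cd36 is highest in macrophage cluster 14 in both libraries, at 1444 and 1404 CPM, and Scarb1 in vascular cluster 36 differs between libraries, at 89.8 and 290.5 CPM.

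Scarb1, the high-density lipoprotein receptor, had the broadest distribution. It lay above the B-like and T-like interval in 13 of 21 classes in WT and 15 of 21 in KO. Sinusoidal endothelial-like cells held 98.8 CPM (89.7 to 109) in WT and 151 CPM (143 to 159) in KO, a log2 ratio of 0.61 (0.45 to 0.77). That ratio kept its sign under all 11 alternatives, between 0.47 and 0.71. Cluster 5 held 121 and 174 CPM, a log2 ratio of 0.52 (0.34 to 0.71). Cluster 4 held 69.7 and 80.8 CPM, a log2 ratio of 0.21 (-0.14 to 0.57). The pooled ratio of 0.61 was larger than either, and none of the alternatives held the mix of clusters fixed. Kupffer-like cells held 102 and 132 CPM, a log2 ratio of 0.37, and endothelial-like cells without subtype held 133 and 176 CPM.

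The largest Scarb1 ratio, 1.66 (1.12 to 2.31), was in vascular endothelial-like cells, at 89.8 CPM in WT and 290.5 CPM in KO. It rests on 31 and 124 UMIs in 46 and 41 cells. The 5 richest cells held 67.7% of the KO UMIs and 45.2% of the WT UMIs. At 1000 UMIs per cell 10.9% of WT and 17.1% of KO cells had a Scarb1 UMI. In the larger class without subtype, whose leading genes also include Vwf, the log2 ratio of Scarb1 was 0.40 (0.15 to 0.65).

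**Figure D5:**
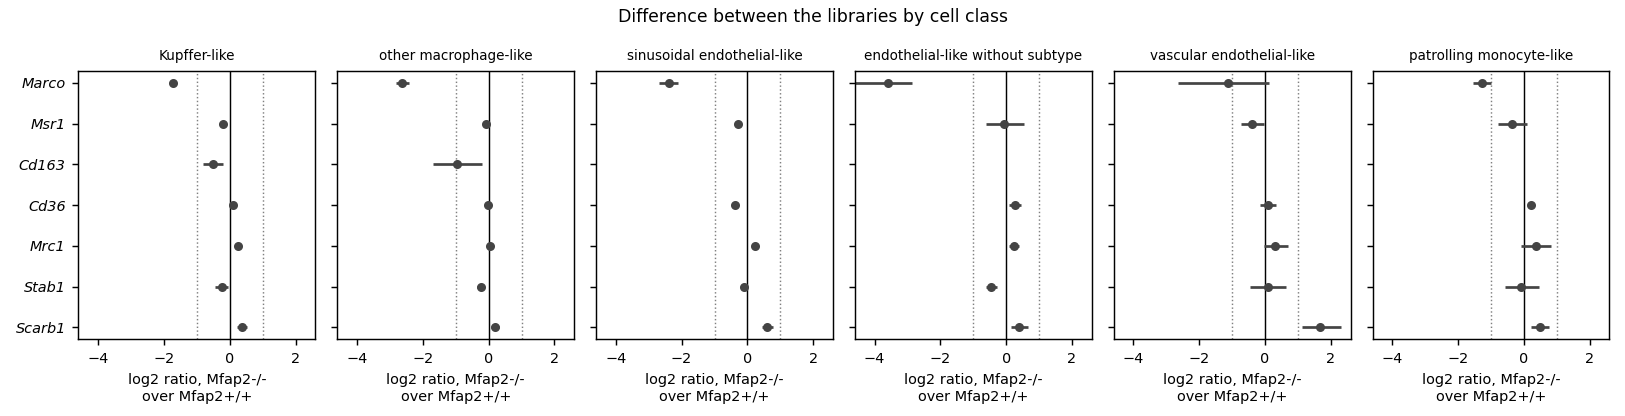
Log2 ratio of Mfap2-/- over Mfap2+/+ for each member in 6 cell classes, with 95% counting intervals; dotted lines mark 2-fold, and members with fewer than 20 UMIs over both libraries are not drawn. Marco lies left of 2-fold in all 6 classes, where B-like and T-like cells lie at -2.54, and Scarb1 lies right of it in vascular endothelial-like cells.

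In macrophage-like cells 2 of 7 (Marco and Cd163) were at least 2-fold lower in KO, where 1.15% of 15011 genes were, and none was higher, where 6.36% were. In Kupffer-like cells 1 of 7 (Marco) was lower, where 1.26% of 12161 genes were, and none higher, where 5.58% were. In other macrophage-like cells 1 of 7 (Marco) was lower, where 0.795% were, and none higher, where 5.47% were. In sinusoidal endothelial-like cells 1 of the 6 members with enough UMIs (Marco) was lower, where 2.91% were, and none higher, where 3.82% were. In vascular endothelial-like cells 1 of 6 (Marco, from 15 and 8 UMIs) was lower and 1 (Scarb1) higher, where 4.87% and 5.76% were. Marco was likewise the 1 of 6 lower in endothelial-like cells without subtype, where 2.39% of genes were, and in patrolling monocyte-like cells, where 1.35% were. None was higher there, where 2.71% and 4.09% were. Marco was also the 1 of 6 lower in classical monocyte-like (1.53% of genes), mesenchymal-like (1.83%) and B-like and T-like cells (1.34%). None of the members was 2-fold higher in these classes, where 4.49%, 5.96% and 3.96% of genes were. Marco stood there near the free RNA background of 56.9 CPM in WT and 9.75 CPM in KO. It was 54.4 and 6.72 CPM in classical monocyte-like and 42.5 and 10.7 CPM in mesenchymal-like cells. Outside Kupffer-like cells most of these Marco counts therefore cannot be told apart from the difference in background, and they are not separate results. The median log2 ratio of the members was -0.20 in Kupffer-like cells, where that of all genes was 0.13. Since Marco was singled out from this contrast, nothing is read from its place in it.

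Of 18 other scavenger receptor genes on a fixed list, 13 had enough UMIs in macrophage-like cells. Of these, 1 was at least 2-fold higher in KO (Scara3, 1.55 and 3.19 CPM), where 6.36% of all genes were, and 1 lower (Scarf2, 1.96 and 0.90 CPM), where 1.15% were. Both had low levels. Colec12, a collectin of the scavenger receptor family, stood at 49.1 and 30.1 CPM, a log2 ratio of -0.70 (-0.84 to -0.57). Scarf1 (-0.56), Cxcl16 (-0.34) and Lrp1 (-0.32) also had intervals below 0, while Stab2 (0.52), Cd44 (0.43) and Mrc2 (0.48) had intervals above it. The list's median log2 ratio was -0.05, against 0.13 over all genes. In Kupffer-like cells alone the log2 ratio of Cd44 was 0.016 (-0.0078 to 0.039), and the intervals of Scarf1 and Mrc2 also held 0. Those of Colec12, Cxcl16, Lrp1 and Stab2 lay on the same side of 0 as in macrophage-like cells. Stab2, stabilin-2, stood at 2399 CPM in WT and 2745 CPM in KO sinusoidal endothelial-like cells, a log2 ratio of 0.19. Of 12 other uptake receptors with enough UMIs none passed 2-fold in macrophage-like cells, and 1 of 13 in sinusoidal endothelial-like cells was lower (Tyro3, from 12 and 8 UMIs), where 2.91% of genes were. In Kupffer-like cells Itgam, the complement receptor subunit CD11b, went from 57.7 to 26.9 CPM, and Clec4e, a receptor for mycobacterial glycolipid, from 56.0 to 27.3 CPM, 2 of 12 lower where 1.26% of genes were.

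Genes that handle the cargo were mostly within 2-fold. Of 16 genes for haem, iron and lipid handling, 1 was lower in KO macrophage-like cells, where 1.15% of genes were: Lpl, lipoprotein lipase, at 529 and 261 CPM, a log2 ratio of -1.02. Hmox1, haem oxygenase 1, stood at 945 and 991 CPM. In Kupffer-like cells alone Lpl stood at 804 and 551 CPM, a log2 ratio of -0.54. There 1 of 16 was lower, where 1.26% of genes were: Fabp4, at 110 and 46.3 CPM, a log2 ratio of -1.24. In sinusoidal endothelial-like cells the fatty acid carriers Fabp4 (4931 and 1239.6 CPM, log2 ratio -1.99) and Fabp5 (1701 and 529 CPM, -1.68) were lower in KO, 2 of 16 where 2.91% of genes were. None of 13 regulators of macrophage identity passed 2-fold in macrophage-like cells. Spi1, which encodes PU.1, stood at 394 and 356 CPM there. Nr1h3, the liver X receptor alpha, stood at 297 and 157 CPM there, and was the 1 of 13 lower in sinusoidal endothelial-like cells (2.91% of genes), at 30.3 and 14.6 CPM.

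Over the 42 pairs of class and library, the genes most like Marco in log2 level were Cxcl13 (r = 0.85), Cd5l (0.81) and Vsig4 (0.77), out of 8495 compared. Those most like Cd163 were Epb41l3 (0.79), Cfp (0.77) and Cd5l (0.76). Mrc1 and Stab1 were each other's closest gene (0.92). Tfec (0.91) and Dab2 (0.90) came next for Mrc1, and Dab2 (0.90) and Npl (0.89) for Stab1. Msr1 was closest to Cd38 (0.84), Slc43a2 (0.82) and Mrc1 (0.82). Cd36 was closest to Gatm (0.78), Pparg and Mrc1 (both 0.77), and Scarb1 to Dock1 (0.83), Dusp3 and Sash1 (both 0.81). These points share libraries, depth and free RNA, so the values describe the classes and carry no p. Between members, r was 0.66 for Marco with Cd163, 0.82 for Msr1 with Mrc1 and 0.15 for Marco with Scarb1.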

How the data were processed

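The deposited matrices hold raw UMI counts per gene and barcode, for which the authors ran Cell Ranger in version 7.0.1, per the file headers. The submitters' processing notes name Cell Ranger 3.1.0, Seurat and mm10. Strand, intron and cell-calling settings are not given in the sources used here. Libraries were made with Chromium 3′ v3 reagents, per the labels' protocols.

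Barcodes under 200 genes or over 20% mitochondrial UMIs were left out, 413 in WT and 149 in KO. The highest Scrublet scores (scanpy 1.11.5) were removed at 0.8% per 1000 cells, 1034 WT and 1295 KO cells. The automatic threshold marked 0 WT cells and so did not work there. Both libraries were clustered together (30 components, 15 neighbours, Leiden resolution 1, leidenalg 0.10.2) into 39 clusters, without the members, listed genes, Mfap2, mitochondrial, ribosomal and haemoglobin genes. A cluster was named from at least 3 markers of a class. Each had a summed level at least 2-fold that of all other cells and a UMI in at least 10% of the cluster's cells. No name was given where the leading genes were those of another class (clusters 9, 23 and 25). Nor was it given at low depth with no marker among the leading genes (clusters 24 and 32). That haemoglobin alone names no cluster was decided after clusters were seen. So were the splits by Timd4 and by 10 Marco UMIs, the weighting to the WT mix of clusters, and the values without the cell richest in Marco.

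CPM are sums over cells with exact Poisson intervals, shares have Clopper-Pearson intervals, and log2 ratios add 1 count to each sum and have exact conditional intervals (scipy 1.17.1). Counts past 2-fold are over genes whose UMIs in both libraries sum to 20 or more. The interval step was tested on simulated counts. Promoters and positions came from RefSeq GRCm38.p6 and GENCODE on GRCm38. Named genes were the members, list genes past 2-fold in macrophage-like or sinusoidal endothelial-like cells, and the 3 genes most like each member. Clec4f, Timd4, Cd5l, Stab2, Colec12, Scarf1, Cxcl16, Lrp1, Cd44, Mrc2, Hmox1, Spi1, Itgam and Clec4e were named after their values were seen. The members and lists were chosen with earlier results of these data known. Of the listed genes, 1 (Clec7a) was not matched. No protein sequences were used here.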

Additional observations from a re-analysis of the deposited data

Results flagged for a closer look

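All 7 members were above the B-like and T-like level in the 1006 WT and 670 KO cells of the 5 clusters without a class name, which no comparison above uses. Marco stood there at 177 CPM in WT and 82.6 CPM in KO. Msr1 stood at 69.7 and 58.1 CPM and Cd163 at 3.79 and 2.10 CPM. Cd36 stood at 96.5 and 78.1 CPM, Mrc1 at 48.4 and 63.8 CPM, Stab1 at 38.7 and 34.4 CPM and Scarb1 at 45.2 and 56.9 CPM. Most Marco UMIs of these cells lay in cluster 9, with 466 WT and 366 KO cells and a median of 983.5 and 1093 UMIs per cell. It held Marco at 646 CPM in WT and 496 CPM in KO.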

How the results depend on the processing

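No paired analysis was possible because each genotype has 1 library. Marco remained lower in KO under the 11 alternatives run for macrophage-like and for Kupffer-like cells. Its log2 ratio in these 2 classes was -3.12 and -2.21 with no doublets removed, -3.13 and -2.19 at the automatic Scrublet threshold, and -3.05 and -2.08 under stricter cell filters (500 genes, 10% mitochondrial UMIs). It was -3.09 and -2.14 at Leiden resolution 2, -2.96 and -2.33 with each cell gated by markers, and -2.79 and -1.31 with each cell thinned before summing. It was -3.36 and -1.87 by median of ratios, which moved all ratios by 0.13, and -2.84 and -1.34 as a mean of per-cell CPM. It was -3.36 and -1.88 without the 5 richest cells, a setting chosen after seeing the data, and -3.29 in macrophage-like cells with the B-like and T-like level subtracted. Split at 3 Clec4f UMIs, Marco in macrophage-like cells gave -2.63 in positive and -3.48 in negative cells. Split by Vsig4 it gave -3.20 and -2.35, and by Timd4 -2.69 in negative cells.

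Signs turned for ratios near 0. Cd36 turned in macrophage-like cells when thinned (-0.039), by median of ratios (-0.061) and by per-cell CPM (-0.12). It turned in Kupffer-like cells at resolution 2 (-0.053), by median of ratios (-0.029), by per-cell CPM (-0.089) and without the 5 richest cells (-0.060). It turned in gated patrolling monocyte-like cells (-0.10), in Timd4-positive macrophage-like cells (-0.19), and in cells negative by 3 Clec4f UMIs (0.068), Vsig4 (0.17) or Timd4 (0.086). Mrc1 turned in gated macrophage-like cells (0.093) and in cells positive from 3 Clec4f UMIs (0.020), and Marco in patrolling monocyte-like cells with background subtracted (0.0083). With all genes with a UMI counted, 6.62% of genes were 2-fold lower and 10.7% higher in KO macrophage-like cells, and 2.44% and 17.3% in Kupffer-like cells. By median of ratios 1.77% and 1.94% were lower. The median log2 ratio of uptake receptors was -0.23 with all genes counted, and that of cargo genes -0.22 when thinned. The cause of these changes was not tested.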
